A study of Mus musculus with 48 samples.

Results

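The cytosolic ribosomal protein genes encode the protein subunits of the ribosome outside mitochondria. They were taken as the symbols of the count table made of Rpl or Rps and a number. After the number, at most 1 letter (a, x, l or y) and 1 digit could follow, so longer names such as Rpl36al fall outside. Rplp0, Rplp1, Rplp2 and Rpsa were added, and symbols marked as pseudogenes were left out. A symbol was kept in a tissue where it averaged at least 10 CPM (the library's counts scaled to a total of 1e6) over the 24 libraries of that tissue. Of 25229 symbols in the table, 85 had such a name and 78 were kept in at least 1 tissue. Each tissue kept 77 and both kept the same 76. The 48 libraries formed 16 groups of 3 and came from male C57Bl/6J mice in which both copies of Nr1d1 and of Nr1d2 were floxed (these encode the clock repressors REV-ERBα and REV-ERBβ). Control mice received AAV8-TBG-EGFP through the tail vein and HepDKO mice received AAV8-TBG-Cre, a virus that expresses Cre recombinase from a hepatocyte promoter, so that the deletion is directed at the liver and not at the tissues sequenced. The mice were injected at 6 to 10 weeks of age and tissue was taken 2 to 4 weeks later, at 10 to 12 weeks of age, under 12 h of light and 12 h of dark at 27 C on chow. Arcuate nucleus of the hypothalamus and nodose ganglion, the sensory ganglion of the vagus nerve, were collected at 4, 10, 16 and 22 h after lights on, written as zeitgeber times (ZT). Each arcuate library pooled 3 mice per the treatment protocol (3 to 4 per the series description), and each nodose library pooled 4.

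Ribosomal proteins are made in near equal numbers, since each ribosome carries a single copy of nearly all of them, and their messenger RNAs are among the most abundant of a cell. Most of these messenger RNAs begin with a C followed by a run of pyrimidines, the terminal oligopyrimidine or TOP motif, through which the kinase mTORC1 and the protein LARP1 set their translation. The liver clock has been described to time ribosome production in hepatocytes. A few subunits have paralogs that replace them in particular tissues, such as Rpl3l in striated muscle.

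The start sites of the members were read first, because the TOP motif is the sequence feature that the family is known for. The sequences below hold 10 bases before and 20 bases from the RefSeq start on (GRCm38), on the transcript's strand, and capitals mark an unbroken run of C and T that begins with C at the annotated start and has at least 4 pyrimidines after that C. The first 4 show such runs, in order of length, and the last 4 are members on which later results turn and that have none at the annotated base.
Rplp2: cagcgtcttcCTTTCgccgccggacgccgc
Rpl38: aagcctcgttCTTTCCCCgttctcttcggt
Rps6: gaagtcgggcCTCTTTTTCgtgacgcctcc
Rpl35: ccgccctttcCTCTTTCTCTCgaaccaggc
Rpl13a: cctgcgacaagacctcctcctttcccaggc
Rpl22l1: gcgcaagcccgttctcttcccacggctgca
Rplp0: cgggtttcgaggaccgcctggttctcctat
Rpl3l: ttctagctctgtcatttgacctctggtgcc
These windows lie at chr7:141447641-141447670 on the plus strand for Rplp2, chr11:114668570-114668599 plus for Rpl38, chr4:86857348-86857377 minus for Rps6 and chr2:39005112-39005141 minus for Rpl35. They lie at chr7:45128726-45128755 minus for Rpl13a, chr3:28805498-28805527 plus for Rpl22l1, chr5:115559457-115559486 plus for Rplp0 and chr17:24727816-24727845 plus for Rpl3l. Each window holds the first bases of the RefSeq transcript's first exon and the bases before it. Of 58 members with a RefSeq start window that was used, 12 (20.7%) had the run at the annotated base, against 3.01% of all 27025 genes with a window. A longer run, of at least 8 pyrimidines beginning with C anywhere within 20 bases of the start on the transcript's strand, was held by 28 of 58 members (48.3%) and 14.5% of all genes. This second motif can overlap the first. None of 69 genes for mitochondrial ribosomal proteins had the run at the annotated base, and 15.9% of them had the longer one. A match describes letters in these windows, and annotated starts can lie some bases away from the starts used in a tissue.

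The libraries differed in depth and in what else they contained. Arcuate libraries held 15483922 to 20399718 counts and nodose libraries 1813994 to 10422914, so the nodose values carry more counting error. Members took 1.32% to 1.97% of the counts of an arcuate library and 1.21% to 1.73% of a nodose library. The libraries labelled nodose had little neuronal RNA: the summed level of the vagal neuron markers had a median of 10.9 CPM over them (6.86 to 27.0) and 392 in arcuate. Their skeletal muscle markers summed to a median of 27190 CPM (4074 to 58262), against 6.15 CPM in arcuate. They are called nodose here after their label. The X-linked RNA Xist, normally expressed from the inactive X of females, was at 119.7 CPM in arcuate HepDKO ZT10 replicate 3 and at 234.5 CPM in nodose HepDKO ZT10 replicate 2, while the other libraries, all labelled male, were at or below 1.93 CPM. A further 4 libraries stand apart for the members and are followed by name: arcuate HepDKO ZT4 replicate 3 and HepDKO ZT10 replicate 1, and nodose HepDKO ZT22 replicate 3 and Control ZT4 replicate 1. Nr1d1 and Nr1d2 cannot check the labels here, since the Cre acts in hepatocytes. Nothing in the labels ties a replicate number to an animal or day, so p-values measure the spread between pools.

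Averaged over the libraries of a tissue, most members lay within a few fold of each other, with a few far lower. The median over members of the mean level was 180 CPM in arcuate (12.6 to 632) and 178 CPM in nodose (28.5 to 587), and 66 and 60 members lay between 100 and 400 CPM. On the scale that allows genes to be compared, CPM per kilobase of transcript, the medians were 251 and 241. In arcuate the highest members per kilobase were Rps21 at 583, Rplp1 at 581 and Rpl41 at 509 CPM per kb. Rplp1 encodes an acidic protein of the stalk, which recruits elongation factors, and Rpl41 the smallest ribosomal protein. The lowest were Rps27l at 25.2, Rps20 at 31.8 and Rpl7l1 at 35.2. In nodose Rps24 led with 902 CPM per kb, before Rpl23a at 475 and Rps14 at 468, and Rpl7l1 at 34.8, Rps20 at 37.2 and Rpl22l1 at 54.4 were lowest. The transcript length used for Rps20 is 3706 bases, and whether this is the transcript that was counted is not given in the sources used here. Between the libraries of a tissue, the coefficient of variation of a member had a median of 10.4% in arcuate (3.31 to 15.2). In nodose the median was 12.7% (7.58 to 43.1), with the highest value for Rpl3l.

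The level was missed by 7 symbols of the family in both tissues, and 4 of these encode standard subunits of the ribosome. Of the 4, Rps27 has the paralog Rps27l. Rpl26 was at 0 in all libraries, Rpl30 averaged 0.25 CPM in arcuate and 0.073 in nodose, Rps27 0.26 and 0.55, and Rpl34 0.30 and 0.34. Many windows of 50 bases in their transcripts also occur in other annotated genes: 98.6% for Rps27, 71.3% for Rpl26, 50.6% for Rpl34 and 47.8% for Rpl30. Over the 77 arcuate members the median share was 55.4% (0 to 92.4), and 46 had over 50%. How reads that fit several genes were counted is not given in the sources used here, so levels of members with many shared windows are uncertain, and levels of the 4 near 0 are not taken as absence. The other 3 symbols outside were the copies Rpl10l, Rpl39l and Rpl32l. Nearest to the limit, Rps27l was inside in arcuate with 12.57 CPM and Rpl34 outside with 0.30, and in nodose Rpl22l1 was inside with 28.5 and Rps4l outside with 8.03.

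Between the tissues, Rpl22l1, Rplp0, Rps27l, Rpl35a and Rpl37 differed by over 2-fold under both scalings used, while the median member differed little. In the edgeR quasi-likelihood test over all 17478 genes with Benjamini-Hochberg adjustment at 0.05, 44 of the 76 members of both tissues were higher in nodose, 22 were lower and 10 did not pass. Rpl3l and Rps4l, the other 2 of the 78, are members only through the tissue where they are high, so their difference follows from the rule and is given without a test. Of all genes 92.1% passed, 45.6% higher and 46.6% lower, so a call says little here and size matters more. The median difference of the members (nodose minus arcuate, log2, after TMM scaling of library sizes) was 0.15, and 6 of the 76 (7.89%) differed by over 2-fold, against 54.8% of all genes. Scaling moves both the direction of the smaller differences and who is past 2-fold. On plain CPM Rps24 stood at 0.83 where TMM gave 1.02, and Rpl3 at -1.10 where TMM gave -0.92. On that scale the median gene stood at -0.18 and the median member at -0.04, and 11 of the 44 higher calls were negative. Tissue and library preparation cannot be told apart, because arcuate libraries were made by a sequencing company and nodose libraries with a kit that removes ribosomal RNA. In tissue pools, different numbers of cells of a type and different RNA per cell cannot be told apart either. By shared windows, the median size of the difference was 0.44 over the 38 of the 76 with the smallest shares and 0.22 over the other 38, a description with no test.

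**Figure D1:**
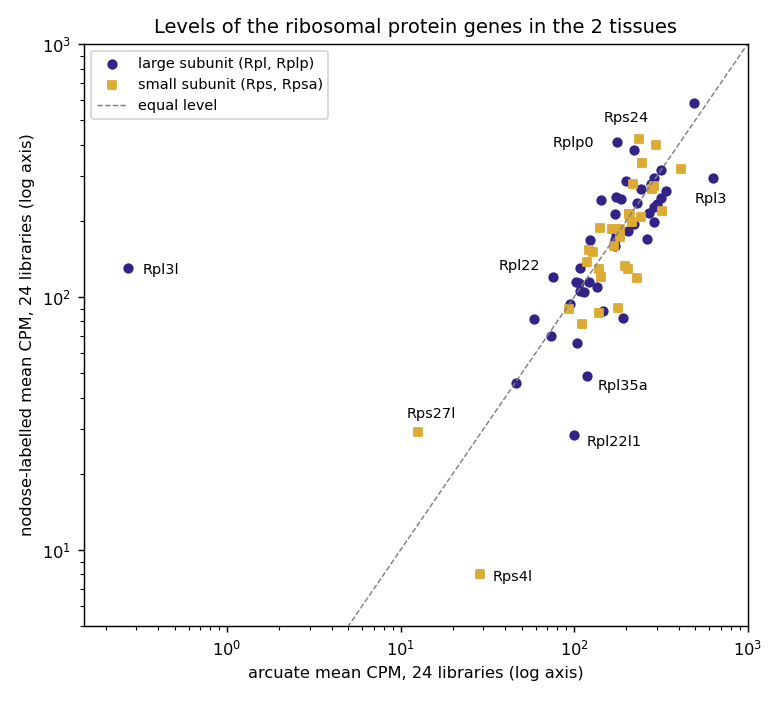
Mean level of each of the 78 members in arcuate (x axis, CPM, log scale) and nodose (y axis, CPM, log scale), each over 24 libraries, with subunits by colour and the dashed line at equal levels. Most points lie near the line, while Rplp0, Rps24 and Rpl3l lie above it and Rpl22l1, Rps4l, Rpl35a and Rpl3 below.

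Of the paralog pairs 11 of 14 symbols were members, Rpl3l and Rps4l only through the tissue where they are high. Among the members of both tissues, Rpl22l1 and Rps27l of the pairs differed by over 2-fold under both scalings. So did Rplp0, Rpl35a and Rpl37 outside the pairs. Rpl22l1 (chr3:28805436-28807424, plus strand) can replace Rpl22, an RNA-binding protein of the large subunit. Rpl22l1 ranged from 83.9 to 145 CPM in arcuate (median 99.3) and from 9.13 to 35.6 CPM in nodose (median 28.3), with no overlap. The lowest value was that of HepDKO ZT22 replicate 3, and the other 23 nodose libraries had 23.0 to 35.6 CPM. It was lower in nodose by edgeR (log2 difference -1.62 ± 0.065 SE, adjusted p = 1.33e-25, n = 24 libraries per tissue). Rpl22 (chr4:152325742-152334071, plus strand) went the other way, from 65.8 to 89.8 CPM in arcuate and from 103 to 146 CPM in nodose (log2 difference 0.86 ± 0.037 SE). The copy made up 53.1% to 61.8% of the pair's CPM in arcuate (median 57.0%) and 7.55% to 25.2% in nodose (median 20.3%), with the 7.55% again in HepDKO ZT22 replicate 3. Both directions were the same on plain CPM.

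Rpl3l (chr17:24727820-24736143, plus strand), the striated muscle form of Rpl3, shared none of its windows with other genes. It had 0 to 11 counts per arcuate library (mean 0.27 CPM, not a member there) and 20.4 to 263 CPM in nodose (median 135). Its partner Rpl3 (chr15:80077791-80091868, minus strand), a core protein near the catalytic centre, was lower in nodose, at 205 to 409 CPM against 564 to 749 CPM (log2 difference -0.92 ± 0.039 SE, adjusted p = 1.13e-24 by edgeR). Rpl3l thus took 4.75% to 51.9% of the pair's CPM in nodose libraries, with a median of 29.4%. The libraries lowest in Rpl3l were also lowest in muscle markers: Control ZT16 replicate 3 had 20.4 CPM of Rpl3l with 4074 CPM of markers, and Control ZT4 replicate 1 had 31.4 with 7229. Its highest values were 263 CPM in HepDKO ZT22 replicate 3, with 41963 CPM of markers, and 222 CPM in Control ZT10 replicate 1, with 58262. The part of muscle RNA in the Rpl3l level was not tested.

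Rps4l (chr6:148354656-148355598, plus strand), which GENCODE lists as a transcribed processed pseudogene of Rps4x, was a member only in arcuate. It had 20.9 to 39.8 CPM there and 5.93 to 11.1 CPM in nodose, where its mean of 8.03 CPM was below the limit of the rule. Rps4x, the X-linked parent gene with 72.2% shared windows, was at 247 CPM on average in arcuate and 338 in nodose. Of the remaining pairs, Rpl7 was higher in nodose (382 ± 38.1 CPM against 221 ± 17.3, SD, n = 24; log2 difference 0.97 ± 0.031 SE), while Rpl7l1 had nearly the same CPM in both (45.6 and 46.1). Rps27l was higher in nodose, at 29.1 against 12.6 CPM (log2 difference 1.40 ± 0.077 SE), and its partner Rps27 is near 0 in both. Rpl39 averaged 58.8 and 81.9 CPM and Rpl10 287 and 296 CPM, both with their copies at or close to 0.

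**Figure D2:**
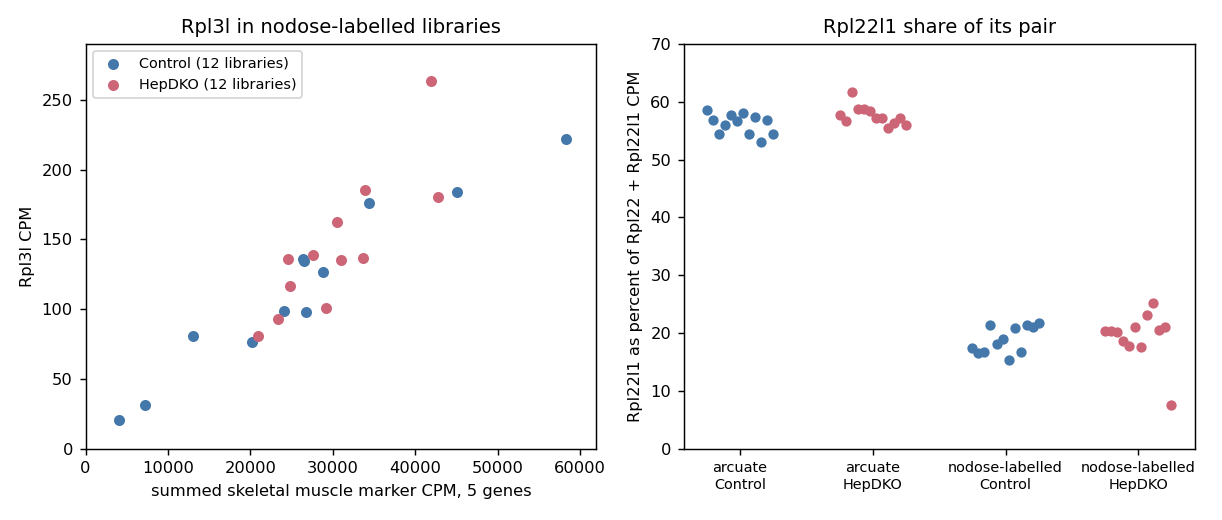
Left, the level of Rpl3l (y axis, CPM) against the summed level of 5 skeletal muscle markers (x axis, CPM) in each nodose library, coloured by genotype, with Rpl3l from 20.4 to 263 CPM. Right, Rpl22l1 as a percent of the CPM of Rpl22 and Rpl22l1 together (y axis) in each library, which lies between 53.1% and 61.8% in arcuate and between 7.55% and 25.2% in nodose.

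Stalk proteins did not move together between the tissues. Rplp0 (chr5:115559467-115563727, plus strand), the base of the stalk and a common reference gene, had 161 to 216 CPM in arcuate and 311 to 488 CPM in nodose. The groups did not overlap, and the log2 difference was 1.39 ± 0.029 SE (adjusted p = 3.63e-36 by edgeR). Its partners at the tip went less far or the other way: Rplp2 averaged 107 and 113 CPM (log2 difference 0.28 ± 0.071 SE) and Rplp1 290 and 198 CPM (log2 difference -0.36 ± 0.037 SE). Rpsa, a small subunit protein also known as the laminin receptor precursor, averaged 415 and 322 CPM (log2 difference -0.17 ± 0.046 SE).

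Among the members with roles beyond the ribosome's core, 3 of 8 were higher in nodose, 3 lower and 2 did not pass. Of all genes 92.1% passed, 45.6% higher and 46.6% lower. Rpl5 and Rpl11 form a complex with 5S rRNA that inhibits Mdm2 and so stabilises p53. Rpl5 was higher in nodose, at 241 ± 19.7 CPM against 142 ± 10.6 (SD, n = 24; log2 difference 0.95 ± 0.029 SE, adjusted p = 5.99e-30 by edgeR), while Rpl11 was at 182 and 205 CPM (log2 difference 0.02 ± 0.037 SE, adjusted p = 0.539). Rpl35a and Rps19, both mutated in Diamond-Blackfan anaemia, were lower, at 48.7 against 118 CPM (log2 difference -1.08 ± 0.075 SE) and at 90.4 against 180 CPM (log2 difference -0.80 ± 0.046 SE). Rpl38, needed for translation of some Hox messenger RNAs, differed by -0.12 ± 0.040 SE on the log2 scale. Rps27a, which is made as a fusion with ubiquitin, differed by 0.23 (0.04 on plain CPM). Rps6, the substrate of S6 kinase, differed by 0.18, with almost equal plain CPM (210 and 209). Rpl10a gave 0.08 ± 0.040 SE (adjusted p = 0.0655 by edgeR).

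In arcuate, 2 HepDKO libraries lay high for nearly every member. Deviations were taken per gene from the median of the tissue's 24 libraries, on the log2 CPM scale after TMM. In arcuate HepDKO ZT4 replicate 3 the members took 1.97% of counts (Wilson 95% interval 1.967 to 1.980, counting error only), the median member stood at +0.34 and 76 of 77 were above. In HepDKO ZT10 replicate 1 they took 1.74%, the median was +0.23 and 77 of 77 were above. Other gene classes moved in the first library too. Genes of oxidative phosphorylation stood at +0.36, the 4 genes for parts of the ribosome that the naming rule leaves out at +0.37, mitochondrial ribosomal proteins at +0.18 and elongation factors at +0.14. Genes outside the family stood at +0.25 under 1 kb of transcript length and at -0.12 from 3 to 5 kb, and at -0.21 under 45% GC and +0.15 over 55% GC. The rRNA symbol Rn45s took 2.08% of its counts, the lowest of the arcuate libraries, whose median was 5.71%. In HepDKO ZT10 replicate 1, genes under 1 kb stood at +0.07, oxidative phosphorylation at +0.16 and the left-out ribosome parts at +0.25. The part of library composition in the member values was not tested.

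**Figure D3:**
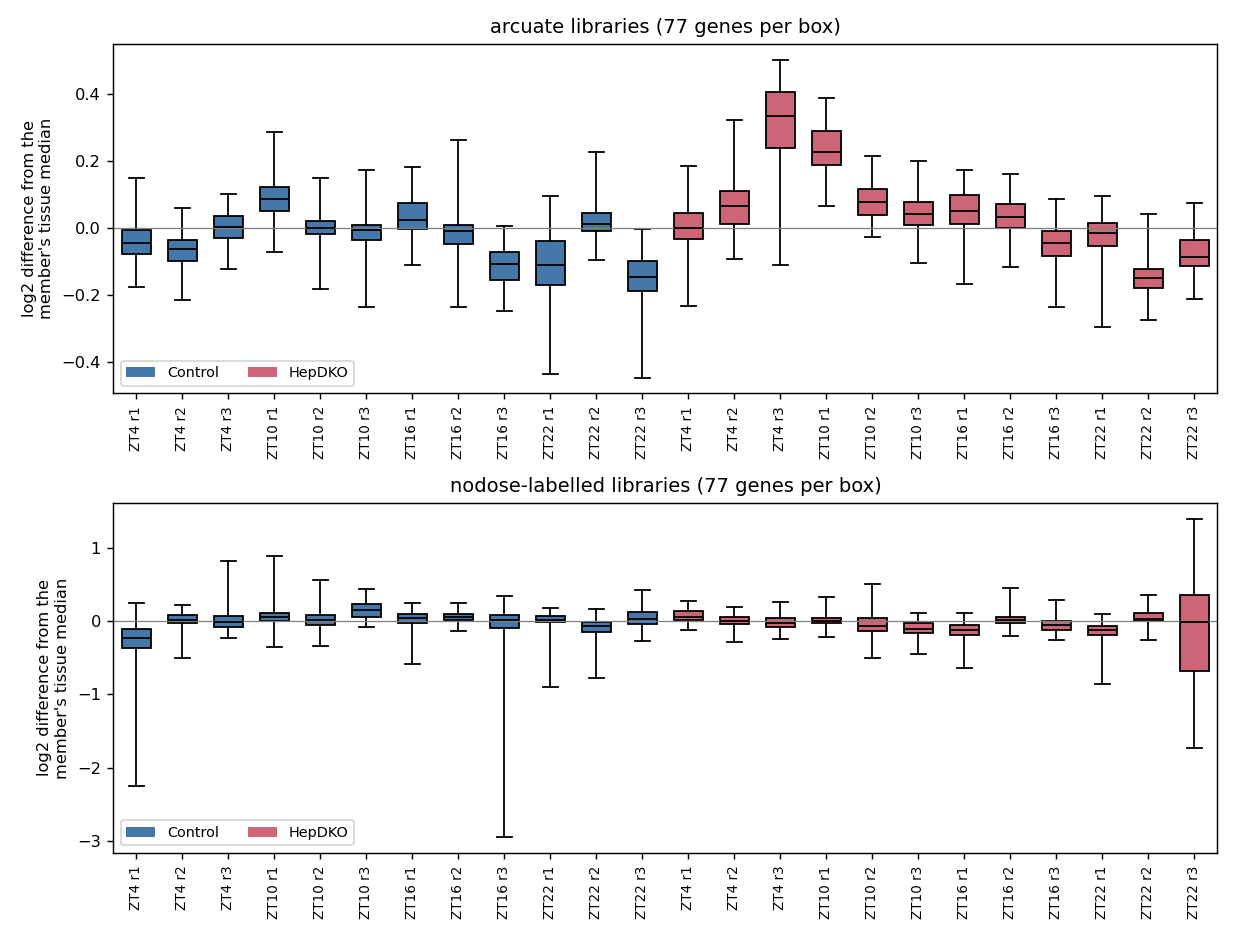
Deviation of the 77 members of a tissue from their median over its 24 libraries (y axis, log2) for each library (x axis), with boxes for the middle range of members, a line at the median and whiskers to the lowest and highest member. In arcuate HepDKO ZT4 replicate 3 and HepDKO ZT10 replicate 1 lie highest, and in nodose HepDKO ZT22 replicate 3 has the tallest box.

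In nodose HepDKO ZT22 replicate 3 the members spread apart without a common direction. Of 77 members 36 (46.8%) lay more than 0.5 log2 from their median, 12 above and 24 below, against 0 to 8 members in any other nodose library. The median member stood at -0.01 and the standard deviation over members was 0.73. Of 5853 other genes at the members' levels 38.9% lay as far, with a median of -0.56 for those under 45% GC and +0.44 for those over 55% GC. The following members were chosen after their values were seen. Rpl39 was at 21.1 CPM in this library and 67.9 to 97.9 in the other 23, and Rps26 was at 34.9 (103 to 170). On the high side, Rplp2 was at 235 CPM (85.4 to 147), Rps14 at 500 (213 to 343) and Rpl37a at 262 (132 to 207). These members lay outside the range of all other nodose libraries. The shallowest library, nodose Control ZT4 replicate 1 with 1813994 counts, had a median member at -0.23 and 8 members more than 0.5 below, after TMM. On plain CPM these 8 lay closer to their medians, with Rps29 at 104 against 127 and Rps28 at 55.7 against 78.2.

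In arcuate, members tended to be higher in HepDKO than in Control, but no member passed the test in edgeR. Averaged over the 4 times, 0 of 77 passed in edgeR after adjustment (0.0% of all 16102 genes). At an unadjusted p under 0.05 there were 36 members, all higher in HepDKO, where 4.97% of all genes were higher and 8.61% were past it in either direction. Of 77 estimates 71 were above 0, against 47.8% of all genes, and the median was 0.08 on the log2 scale (1.05-fold), against -0.004 over all genes. By DESeq2, 2 members passed, with 0.143% of all genes. Members are measured in the same libraries, so these counts are not 77 independent observations. The symbol Mir6236 also went with genotype: it took 0.00105% to 0.00238% of the counts of Control libraries and 0.00201% to 0.00517% of HepDKO libraries. Astrocyte markers summed to 2552 to 2926 CPM in Control and 1874 to 2677 CPM in HepDKO, and the 1874 is in HepDKO ZT4 replicate 3, the highest library for the members. The part of either in the member estimates was not tested.

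Rpl13a (chr7:45125558-45128761, minus strand), part of the complex that silences translation after interferon-γ, had the lowest p. Its Control ZT4 libraries had 177, 183 and 183 CPM, and those of HepDKO ZT4 had 207, 227 and 295. At ZT10 it was at 202, 197 and 185 in Control and 254, 210 and 206 in HepDKO, and at ZT16 at 197, 189 and 169 against 218, 212 and 193. At ZT22 it was at 163, 190 and 163 in Control and 194, 176 and 186 in HepDKO. The 3 HepDKO libraries were above the 3 Control libraries at ZT4 and ZT10, and overlapped with them at ZT16 and ZT22. The overall log2 difference was 0.21 ± 0.043 SE (edgeR adjusted p = 0.0796), and at ZT4 it was 0.38 ± 0.086 SE (edgeR adjusted p = 0.255).

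Rpl38 had an estimate of the same size, while the other members ranged from -0.04 upwards, with 6 of 77 below 0. Rpl38 (chr11:114668524-114672331, plus strand) had 120, 123 and 122 CPM in the Control ZT4 libraries, while HepDKO ZT4 had 138, 157 and 205. Its 3 HepDKO libraries lay above Control there, and the overall log2 difference was 0.21 (edgeR adjusted p = 0.186). Of the 8 members with roles beyond the core, 5 were past the unadjusted level and 7 were above 0, beside 8.61% and 47.8% of all genes, among them Rpl35a with a log2 difference of 0.15 and Rpl11 with 0.13. Of the 4 stalk and surface members 2 were past it, with 0.16 for Rplp2 and 0.13 for Rplp1. The paralog pairs had 1 of 10, near the share of all genes, and their median was 0.04.

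The estimates were largest at ZT4 and ZT10, the times of the 2 high libraries. At ZT4, 46 members were past the unadjusted level, all higher in HepDKO (6.28% of all genes higher, 11.9% in either direction), with 75 of 77 above 0 (48.9% of all genes), a median of 0.16 and none passing in edgeR after adjustment (0.0% of all genes). DESeq2 called 3 at ZT4 (0.13% of all genes). Without HepDKO ZT4 replicate 3 there were 13 such members (4.79% of all genes in either direction), 64 above 0 and a median of 0.05. At ZT10, 5 members were past it (2.34% of all genes), all higher (1.24% of all genes) and led by Rpl41 at 219, 210 and 207 CPM in Control against 277, 248 and 243 in HepDKO (log2 difference 0.26). Without HepDKO ZT4 replicate 3 there were 16 (3.64% of all genes). Without HepDKO ZT10 replicate 1 there were 0 (2.28%), and the median went from 0.09 to 0.03. At ZT16 there were 2 (2.73% of all genes), with the lowest p for Rpl36 (log2 difference 0.21), and a median of 0.05, with 0 to 7 over the fits that leave out 1 library and 7 without Control ZT16 replicate 1 (4.11% of all genes). At ZT22 there were 0 (3.72% of all genes) with a median of 0.005, and the lowest p was that of Rps27a (log2 difference -0.12). The ZT22 median was -0.039 without Control ZT22 replicate 3 and 0.047 without Control ZT22 replicate 2. Over the fits that leave out 1 library, the ZT22 count was 0 to 2 (2.97% to 6.03% of all genes). At none of ZT10, ZT16 and ZT22 did a member or any other gene pass after adjustment in edgeR (0.0%), and DESeq2 called none either.

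Leaving out both high libraries, an alternative chosen after seeing the data, left 19 members past the unadjusted level over all times, all higher, with 61 of 77 above 0 and a median of 0.03, beside 6.4% of all genes. Leaving out each library in turn gave 26 to 43 members, and 0 to 2 passing after adjustment, with the largest counts without Control ZT22 replicate 2 (9.31% and 0.0368% of all genes). Without HepDKO ZT10 replicate 3, the arcuate library with Xist, there were 38 (8.63% of all genes).

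**Figure D4:**
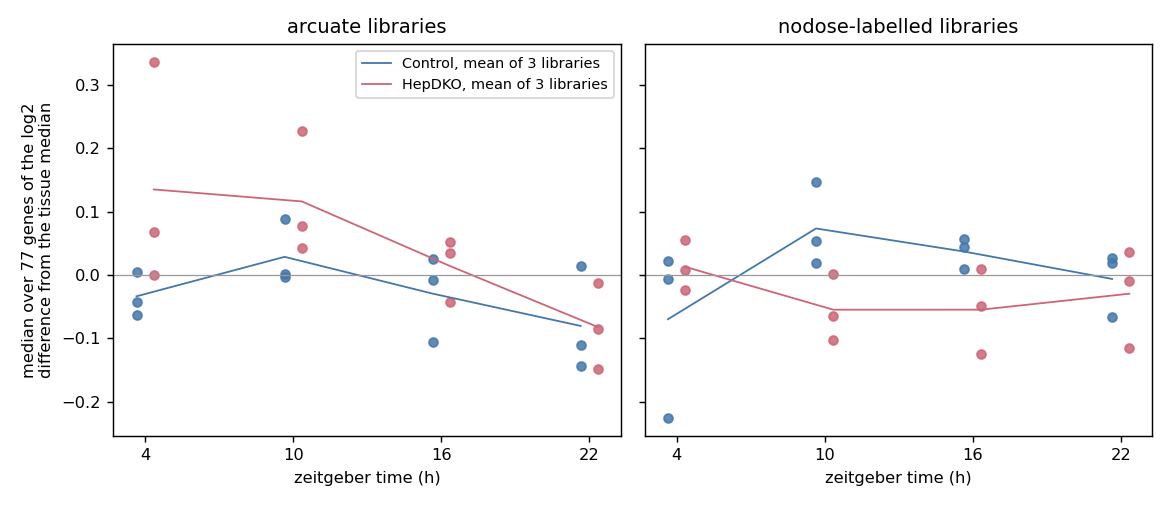
Each point is the median over the 77 members of a library's log2 deviation (y axis) by zeitgeber time (x axis, h), and lines join the means of the 3 libraries of Control and of HepDKO. In arcuate the highest points are HepDKO ZT4 replicate 3 at 0.34 and HepDKO ZT10 replicate 1 at 0.23, and in nodose the lowest is Control ZT4 replicate 1 at -0.23.

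Several non-member classes went with the members in this comparison. None of their genes passed the test in edgeR. The counts that follow stand beside 8.61% of all genes past the unadjusted level and 4.97% past it and higher. Of 79 genes of oxidative phosphorylation, 35 were past the unadjusted level, all higher in HepDKO, with a median of 0.08 log2. Of 78 mitochondrial ribosomal protein genes 14 were, 13 of them higher, with a median of 0.04, and of the 4 ribosome parts outside the naming rule 2 were. Over all times, the share in lists tied more directly to translation was near that of all genes. Past it were 3 of 27 initiation factors, 1 of 8 elongation factors, 3 of 34 genes of ribosome biogenesis and 2 of 19 genes of mTOR signalling and TOP regulation. These lists are small, and 7 of the 8 elongation factors and 10 of the 27 initiation factors were above 0. At ZT4, 3 of the 8 elongation factors were past the unadjusted level, all higher (11.9% of all genes in either direction). Of the other lists there, 4 of 27 (3 higher), 5 of 34 (4 higher) and 4 of 19 (1 higher) were. By length, 11.5% of other genes under 1 kb were past it and higher, and 64.7% were above 0, against 1.51% and 28.4% of those over 5 kb. Members are short genes, and the part of length in their difference was not tested.

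With all libraries, time of day gave the only changes of members within a tissue that passed in edgeR. A 24 h cosine averaged over the genotypes was called for 11 of 77 arcuate members (14.3%) by edgeR with Benjamini-Hochberg adjustment, against 3.86% of all genes, and 60 were past an unadjusted p of 0.05, against 21.6%. The amplitude, from the fitted mean to the peak, was 0.10 to 0.14 log2 for the 11, with peaks at ZT7.23 to ZT9.54. The 11 comprised 2 of 10 paralog members (Rpl22l1 and Rpl39), 2 of 4 stalk and surface members (Rplp1 and Rplp2) and 2 of 8 with roles beyond the core (Rpl11 and Rps27a). Among the others were Rps12, Rps15, Rps16 and Rpl27a. Over all 77, whether called or not, 68 fitted peaks lay between ZT4 and ZT10, where 29.8% of all genes had theirs. The median peak was ZT8.59 and the median amplitude 0.08, beside 0.07 over all genes.

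Rpl22l1 had the lowest p, with a log2 amplitude of 0.13 ± 0.029 SE, a peak at ZT7.23 and an edgeR adjusted p of 0.0282. Its 6 libraries of each time ran from 93.4 to 145 CPM at ZT4 (median 102), 96.7 to 118 at ZT10 (median 106), 83.9 to 102 at ZT16 (median 92.4) and 88.0 to 99.5 at ZT22 (median 92.8). The times overlapped, and the value of 145 belongs to HepDKO ZT4 replicate 3. Rplp2 (chr7:141447370-141451585, plus strand) ran from 97.1 to 153 CPM at ZT4 (median 105), 103 to 132 at ZT10 (median 114), 89.2 to 114 at ZT16 (median 103) and 87.6 to 104 at ZT22 (median 97.3). Its log2 amplitude was 0.13 with a peak at ZT8.54 (edgeR adjusted p = 0.0297). In both the median was highest at ZT10.

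**Figure D5:**
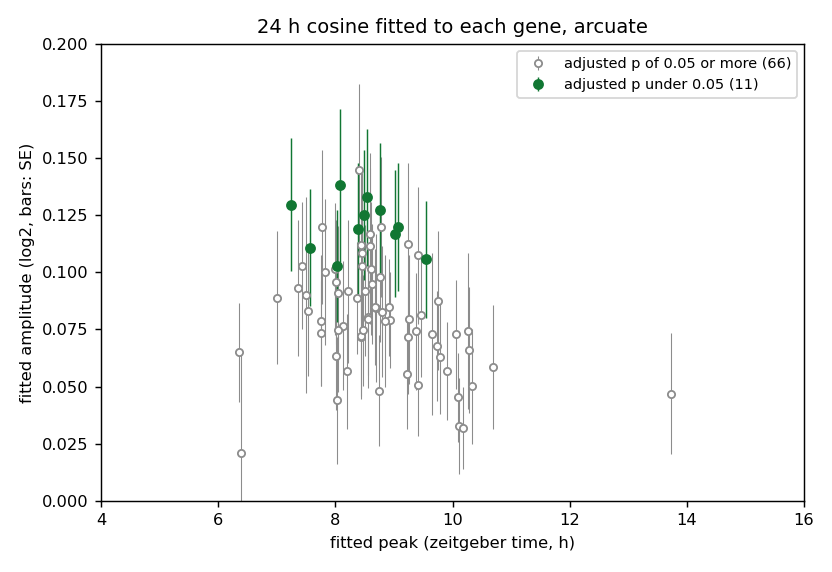
Fitted peak (x axis, zeitgeber time in h) and amplitude (y axis, log2, bars are SE) of the 24 h cosine for each of the 77 arcuate members, with the 11 members past an adjusted p of 0.05 filled. All peaks lie between ZT4 and ZT16, and the filled points lie from ZT7.23 to ZT9.54.

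The count of rhythmic members depended on single libraries in both directions. The share of all genes called, 3.86% with every library, moved as well, though not always in the same direction: without Control ZT22 replicate 1 the members called were 4 and the share 4.36%. The count was 0 without HepDKO ZT10 replicate 1 (2.58% of all genes), HepDKO ZT22 replicate 2 (2.55%), Control ZT10 replicate 1 (2.63%) or Control ZT16 replicate 2 (1.88%). It was 27 without HepDKO ZT4 replicate 3 (5.97% of all genes) and 24 without Control ZT22 replicate 2 (4.71%). Leaving out both high libraries gave 11 (4.39% of all genes), of which 10 were among the 11 above, with a median amplitude of 0.06 over all members. A fit with the neuron and oligodendrocyte marker levels as covariates called 5 (2.08% of all genes), and a test of any difference among the 4 times called 1 (2.79%). Without the arcuate library that carries Xist, 10 were called (3.53% of all genes). The median deviation over the members and the 3 libraries was -0.03, 0.03, -0.03 and -0.08 log2 in Control at ZT4, ZT10, ZT16 and ZT22, and 0.13, 0.12, 0.01 and -0.08 in HepDKO. No member's cosine differed between genotypes after adjustment (0.0% of all genes), and 1 of 77, Rps28, was past the unadjusted level (2.37% of all genes). That count was 0 to 12 over the fits that leave out 1 library, with 12 without HepDKO ZT4 replicate 1 (4.51% of all genes).

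Among other arcuate lists, beside 3.86% of all genes, the cosine was called for 5 of 79 oxidative phosphorylation genes (Atp5k, Atp5g1, Atp5e, Cox8a and Ndufv3), for 2 of 78 mitochondrial ribosomal genes (Mrps34 and Mrpl55) and for 1 of 19 mTOR and TOP regulators. That one was Ddit4, which encodes the mTORC1 inhibitor REDD1, with a log2 amplitude of 0.21 and a peak at ZT5.55 (edgeR adjusted p = 0.00832). None of the 8 elongation factors, 27 initiation factors, 34 biogenesis genes or 4 left-out ribosome parts was called. For scale, the clock genes Nr1d1 and Nr1d2 had log2 amplitudes of 0.41 (peak ZT6.96, edgeR adjusted p = 3.72e-08) and 0.22 (peak ZT9.62, edgeR adjusted p = 0.00317).

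In nodose no member passed a genotype test in edgeR, over all times or at any of the 4 times (0.0% of all 14867 genes at each). Over all times, 7 members were past the unadjusted level, all lower in HepDKO (1.47% of all genes lower, 3.34% in either direction). The median was -0.036 and 55 of 77 were below 0, while 53.3% of all genes were above. Leaving out 1 library gave medians of -0.067 (without Control ZT4 replicate 1) to -0.034. On plain CPM the median member stood at -0.09 with 66 of 77 below 0, and the median gene at -0.04. Leaving out a library gave 5 to 16 members, with 11 without HepDKO ZT22 replicate 3 (4.91% of all genes), 16 without Control ZT4 replicate 1 (2.72%) and 6 without HepDKO ZT10 replicate 2 (2.52%), which carries Xist. DESeq2 called 1 member and 0.0202% of all genes, and put 13 members past the unadjusted level (3.42% of all genes). With muscle and adipocyte marker levels as covariates, edgeR put 12 past it (3.35%).

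Rpl36a (chrX:134585654-134588062, plus strand), a large subunit protein with 85.5% shared windows, had the lowest p. The ZT4 libraries had 77.7, 83.9 and 72.9 CPM for Control, against 73.5, 68.9 and 64.6 for HepDKO, and those of ZT10 had 64.6, 70.3 and 76.3 against 61.5, 65.4 and 63.0. At ZT16 it was at 82.4, 79.0 and 96.6 in Control and 65.5, 67.4 and 59.1 in HepDKO, and at ZT22 at 73.5, 77.5 and 79.9 against 68.4, 58.4 and 34.9. HepDKO lay below Control without overlap at ZT16 and ZT22, and the lowest value is in the library whose members spread apart. The overall log2 difference was -0.28 ± 0.064 SE (edgeR adjusted p = 0.9997). At ZT22 it was -0.46 ± 0.129 SE (unadjusted p = 0.00168 by edgeR, adjusted 0.877), and -0.30 without HepDKO ZT22 replicate 3.

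By time, the nodose medians differed in sign, and counts depended on single libraries. At ZT4, 1 member was past the unadjusted level, Rps15a with a log2 difference of 0.28 (2.36% of all genes), and the median of 0.08 was 0.007 without Control ZT4 replicate 1. Over the fits that leave out 1 library, 0 to 3 members were past it at ZT4 (1.46% to 6.07% of all genes). At ZT10, 5 were (2.04% of all genes), all lower (0.814% of all genes). At that time 73 of 77 were below 0, while 52.0% of all genes were above, and the median was -0.13. Rpl37 led with -0.42. Genes of oxidative phosphorylation had a median of -0.33 there, with 79 of 80 below 0. Without HepDKO ZT10 replicate 2 none of the members was past it, with a median of -0.16, and without HepDKO ZT22 replicate 3 there were 13 (3.71% of all genes). At ZT16, 3 were (4.94% of all genes), all lower, with a median of -0.09 (-0.20 on plain CPM, where the median gene stood at -0.10) and Rpl36a at -0.31, while genes of oxidative phosphorylation had a median of 0.56. Leaving out 1 library gave 0 (without Control ZT16 replicate 3, 2.5% of all genes, among others) to 8 (without HepDKO ZT22 replicate 3, 7.47%). At ZT22, 8 were (5.25% of all genes), 2 higher and 6 lower, with a median of -0.002 (-0.09 on plain CPM, median gene -0.07). There were 2 without HepDKO ZT22 replicate 3 (2.68% of all genes), 24 without HepDKO ZT22 replicate 1 (14.8%) and 27 without HepDKO ZT22 replicate 2 (9.17%). No cosine over time was called in nodose (1.33% of all genes), and 1 member, Rpl24, was past the unadjusted level (12.8% of all genes). Over the fits that leave out 1 library, 0 to 4 members were (10.4% to 16.9% of all genes). In the full fit 19 of 77 peaks lay from ZT4 to ZT10, where 25.4% of all genes had theirs. The cosine did not differ between genotypes for any member after adjustment (0.0% of all genes), with 3 past the unadjusted level (2.83% of all genes) and the lowest p for Rps14. That count was 0 to 11 over the fits that leave out 1 library, with 11 without HepDKO ZT22 replicate 1 (7.61% of all genes).

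The genotype difference itself was compared between the tissues in the joint fit of 48 libraries. No member passed (0.0% of all genes). At the unadjusted level there were 30 of the 76 members of both tissues, all lower in nodose than in arcuate, against 2.76% of all genes lower and 4.73% in either direction. The estimate was negative for 68 of 76, while 53.3% of all genes were above 0, and the median was -0.12 log2. Rpl36a had the lowest p (-0.40 ± 0.082 SE, edgeR adjusted p = 0.104). Leaving out each library in turn gave 24 to 37 members at the unadjusted level and 0 or 1 passing, the 1 without nodose HepDKO ZT22 replicate 3 (0.0443% of all genes) and without arcuate HepDKO ZT4 replicate 1 (0.00574%). DESeq2 called 4 members and 0.0687% of all genes.

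Over the 24 arcuate libraries the members varied together. The correlation of a member's log2 CPM with the median of the other members had a median of 0.907 and exceeded 0.5 for 74 of 77. The exceptions were Rps15a at 0.11, Rpl7l1 at 0.28 and Rps27l at 0.44. Over the nodose libraries the median was 0.466 and 33 members exceeded 0.5. Without HepDKO ZT22 replicate 3 it was 0.655 with 61 of 77. These are descriptions, since the members share library, depth and composition. The non-members closest to the members' median were Pfdn5 (0.943), Atp5e (0.936), Sod1 (0.926) and Cox5b (0.924) in arcuate, and Ppp1r14b (0.787), Ubb (0.778), Cst3 (0.718) and Ninj1 (0.713) in nodose.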

How the data were processed

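The authors deposited 1 table of raw counts per gene for 48 libraries. Per the submitters' processing notes, reads were checked with FastQC 0.11.7, trimmed with Trim Galore 0.6.10 and aligned to mm10 with STAR 2.7.10b. The counting tool, annotation, strand setting and treatment of reads that fit several genes are not given in the sources used here. Nodose libraries were made with KAPA RNA HyperPrep with RiboErase, per the labels.

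Genes were tested with edgeR 4.0.16 (TMM, filterByExpr, robust quasi-likelihood) in R 4.3.3, in 1 fit of 8 groups per tissue and 1 fit of all 48 libraries, with p-values adjusted over all genes. Unadjusted counts use p under 0.05. DESeq2 1.42.0, RLE factors, no filter, TMM without the members, leaving out rRNA-like and mitochondrial symbols, members of at least 100 CPM, marker covariates, any difference among times, the replicate block and leaving out each library were the alternatives. Leaving out both high arcuate libraries was added after seeing the data. log2 CPM used a prior count of 1. The fits were tested on simulated counts in which genes varied independently, so shifts of many genes in 1 library were not covered. Shared windows of 50 bases and lengths came from GENCODE vM21, and start windows from RefSeq, both GRCm38. Start windows on chromosome 18 were left out, for the members and for all genes alike. The member rule, lists and tests were chosen with earlier results of these data known. Named are the paralog, stalk and regulatory lists, up to 3 members of lowest adjusted p per direction and test (otherwise the 1 of lowest p), the extremes per kilobase, symbols nearest the limit and the 4 most alike non-members. In a check of whether replicate numbers pair samples, the correlation of same-numbered deviations had a median of 0.026 in arcuate and 0.004 in nodose, so the numbers were not used as pairs. No 2 libraries of a group agreed within sampling noise. A few single-gene results are not reported here.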

Additional observations from a re-analysis of the deposited data

How the results depend on the processing

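Outside leaving out single libraries, 128 of 135 recomputed counts of passing members stayed within 1.5 times the reported count, a measure that says little where most counts are 0. Of the unadjusted counts 115 of 135 did. Of 179 values of single members 175 kept direction and call and 4 gained a call. None reversed. By DESeq2, arcuate members passing numbered 2 over all times (0.143% of all genes), 3 at ZT4 (0.13%) and 19 for the cosine (6.94%, against 3.86% by edgeR), and DESeq2 called 1 in nodose over all times (0.0202%) and 4 for the tissue difference of genotype (0.0687%). The arcuate cosine called 5 with marker covariates and 1 for any difference among times. Without both high arcuate libraries, chosen after seeing the data, 19 members over all times (6.4% of all genes) and 18 at ZT4 (4.84%) were past an unadjusted p of 0.05. The cause of these shifts was not tested.

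Leaving out each library in turn, members passing ranged over 0 to 2 for arcuate genotype over all times, 0 to 27 for the arcuate cosine, 63 to 69 of the 76 members of both tissues for the tissue level (65 to 71 with Rpl3l and Rps4l, whose call the rule fixed) and 0 to 1 for the tissue difference of genotype, and stayed at 0 in the other tests. Unadjusted counts ranged over 26 to 43 in arcuate over all times (6.86% to 12.5% of all genes), 13 to 59 at ZT4 (4.79% to 21.1%) and 38 to 70 for the cosine (18.2% to 25.2%). Of 720 single-member values under these fits, 26 lost and 4 gained a call and none reversed.

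With a replicate block, 12 arcuate members passed for the cosine (4.2% of all genes) and 54 of the 76 members of both tissues for the tissue level (85.6%), and 37 arcuate members were past the unadjusted level for genotype over all times (9.13%). The numbers share no animal or day in the labels. Depth limits nodose more than arcuate, and the shallowest nodose library had 1813994 counts.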
